A study of Mus musculus with 6 samples.

Results

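The genes described here encode the lysosome's digestive and structural machinery: 33 genes, chosen by symbol from a list of lysosomal hydrolases, lumenal and membrane proteins, 2 transcription factors of the lysosome and subunits of the vacuolar proton pump (V-ATPase), out of 17382 genes in the deposited table. All 33 were found in it. All 33 also passed the filter on low values, and no member passed through 1 group alone, since each had at least 1263 reads in every library. The study grew myeloid cells from the marrow of C57BL/6 mice aged 2 months for 3 days in medium with M-CSF at 40 ng/mL, a cytokine that drives the growth of macrophages. Per the labels, 3 libraries came from mice with both PD-L1 alleles floxed and lysozyme-Cre, here called the libraries labelled knockout, and 3 from mice with the floxed alleles and no Cre, here called wild type. Every group therefore carried the floxed alleles, and the promoter of the lysozyme gene drives the Cre in cells of the myeloid lineage. The design text calls the 3 libraries of a group biological triplicates. The sex of the mice is not in the labels; Xist lay between 171 and 216 TPM in all 6 libraries.

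Lysosomes are acidic compartments in which hydrolases take apart proteins, lipids and glycans brought in by endocytosis, phagocytosis and autophagy. The V-ATPase acidifies them: its cytosolic V1 sector hydrolyses ATP, and its membrane V0 sector carries protons across. Macrophages are rich in lysosomes, and osteoclasts, which form from the same precursors, move the pump to the cell surface to dissolve bone. Many lysosomal genes share a promoter element, the CLEAR motif in which GT stands before and AC after the E-box CACGTG, and which TFEB, TFE3 and MITF can bind.

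That element was looked for in the RefSeq promoters (build GRCm38.p6, the assembly behind mm10), 300 bases long with 250 before and 50 from the start site on. Of the members, 28 matched the promoter table by symbol, with 37 promoters. CACGTG, which reads the same on both strands, was present in 24.3% of the 37 promoters, and in 7.15% of all 32851 promoters of that length. Counted by gene it was found in 9 of 28 members (32.1%), against 11.7% of the tested genes in the table and 23.4% of 77 other lysosomal genes from the lists below. The longer form TCACGTGA, also the same on both strands and always holding a CACGTG, was found in 6 of the 28 members and in 2.16% of the tested genes. GTCACGTG or, on the other strand, CACGTGAC was found in 7 members, and the full consensus, the E-box with both flanks, in 0 of 28. A match is a description of the letters and not evidence of binding.

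The 9 members with a match are shown with 30 bases each, written 5′ to 3′ along the gene's strand, because these are the members whose promoters hold the element; capitals mark CACGTG, and where a gene had several matches the one most like the consensus is given.
Lamp1, chr8:13159121-13159150, plus strand: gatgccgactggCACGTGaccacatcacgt
Mcoln1, chr8:3500462-3500491, plus strand: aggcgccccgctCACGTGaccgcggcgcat
Clcn7, chr17:25133386-25133415, plus strand: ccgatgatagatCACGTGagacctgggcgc
Glb1, chr9:114401018-114401047, plus strand: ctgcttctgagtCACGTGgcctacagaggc
Gla, chrX:134601182-134601211, minus strand: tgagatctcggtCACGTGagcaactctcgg
Atp6v0b, chr4:117887348-117887377, minus strand: gtgcgcgggggtCACGTGgggtcggcgcat
Atp6v0d1, chr8:105566050-105566079, minus strand: ccctactgcggtCACGTGagacgcggtgcg
Atp6v0e, chr17:26676387-26676416, plus strand: tagcgcgccgatCACGTGagcctctgttga
Atp6v1a, chr16:44139373-44139402, minus strand: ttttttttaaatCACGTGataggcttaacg
The Lamp1 promoter held 4 matches, at -61, -45, -28 and -15 from the start site, more than that of any other member. Mcoln1, Clcn7, Gla and Atp6v0b held 2 each. The windows of Lamp1, Glb1, Atp6v0b, Atp6v0d1 and Atp6v1a overlap no exon of GENCODE M21, although the deposited table starts Lamp1 within its window. Those of Mcoln1, Clcn7 and Atp6v0e overlap untranslated exon sequence of the gene itself, and that of Gla overlaps an untranslated exon of its neighbour Hnrnph2.

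Depth, as whole reads recovered per library, ran from 52355659 to 77318131. Cd274, which encodes PD-L1, did not fall with the knockout label (22.6 ± 5.73 against 19.0 ± 4.22 TPM, SD, n = 3 each), so directions are given by label. Lyz2, the lysozyme gene whose promoter drives the Cre, had 13232 to 19354 TPM with the knockout label, against 26707 to 40358 TPM in wild type, without overlap. Of the macrophage and monocyte markers 7 of 8 were in the table, and all were expressed, with Csf1r, the M-CSF receptor, at 815 to 1525 TPM; Adgre1 was not analysed here. A first principal component, computed over 13689 tested genes without the members, did not follow the genotype. It held 44.3% of the variance and set knockout 1, knockout 2 and wild type 3 (-23.0, -17.4 and -30.1) on one side and knockout 3, wild type 1 and wild type 2 (31.8, 19.8 and 19.0) on the other. In whole cultures, fewer cells of a type and less RNA per cell cannot be told apart.

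Most of these 33 genes were abundant transcripts of the cells. Of the 33 members 31 had a mean over 100 TPM, a level reached by 14.5% of the tested genes and by 35 of the 96 other lysosomal genes tested. The median member lay at the 97.5th percentile. Together they made up 3.26, 3.21 and 2.68% of all TPM with the knockout label, against 2.60, 2.53 and 3.38% in wild type; thus the highest and the lowest share both belonged to wild-type libraries. Psap was the member with the highest mean, and Tfeb, at the 53.0th percentile, the one with the lowest.

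**Figure D1:**
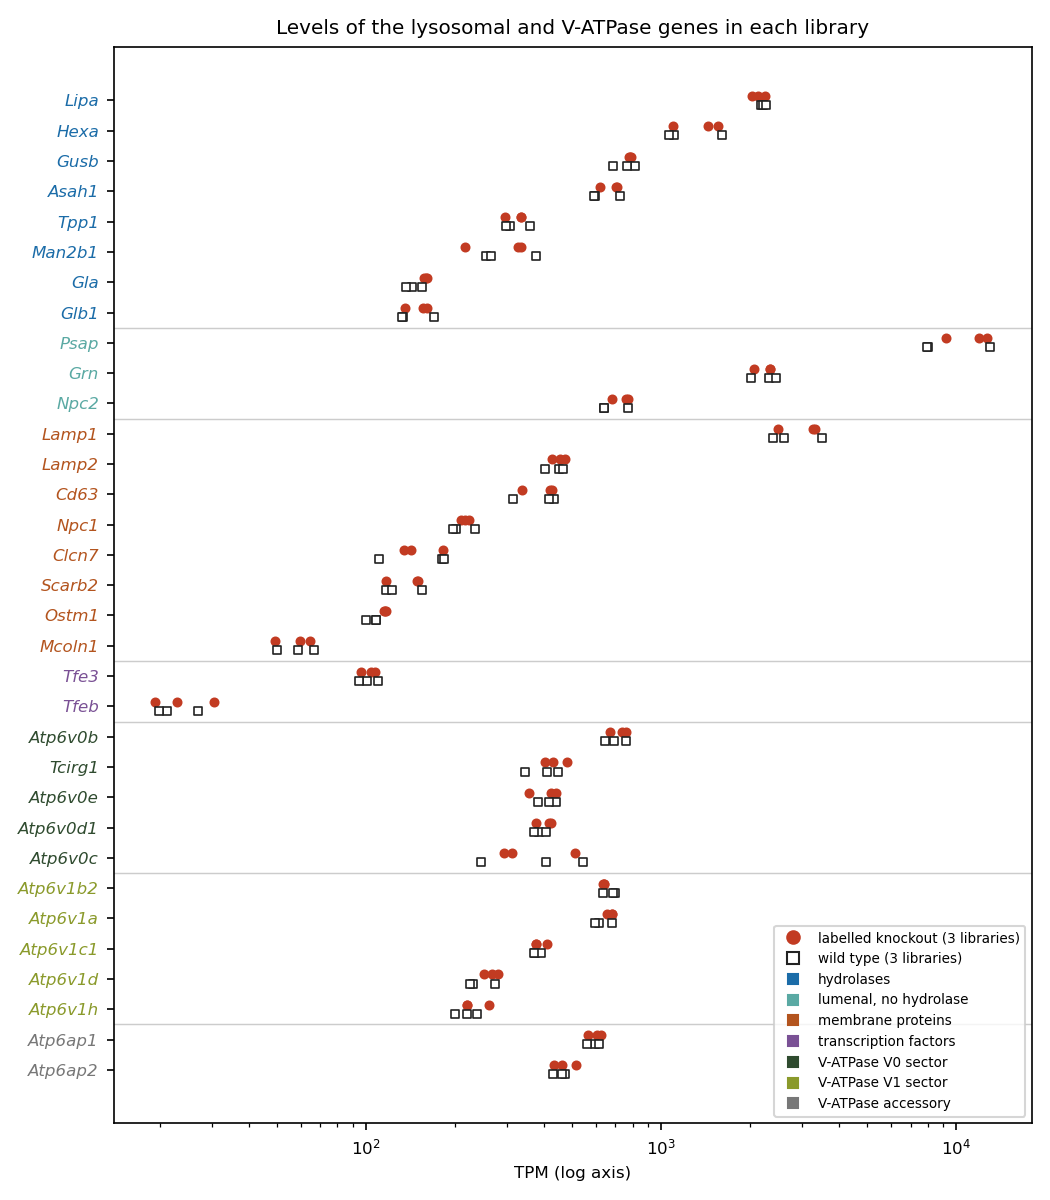
TPM of each gene (log axis) in the 3 libraries labelled knockout (filled circles) and the 3 wild-type libraries (open squares), grouped by role and ordered by mean level. The 2 genotypes lie over one another for nearly every gene; Gla and Ostm1 are the 2 genes whose groups do not overlap.

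No member passed the test between the genotypes. Genotype was tested with limma on log2(TPM + 0.1) over 13722 genes, a scale that understates the change of low genes. Beside a log2 difference ± is its SE, beside a TPM mean its SD. At an adjusted p under 0.05 the test called 0 of the 33 members higher and 0 lower, where 0% of all tested genes were called. None had an unadjusted p under 0.05 either, against 2.18% of all genes, and in the authors' deposited table, which calls 0.265% of its genes, no member is called. The sign was positive for 25 members and negative for 8 (51.1% of all tested genes were positive), and the median was 0.05, against 0.00 over all tested genes. Without wild type 2 16 members were positive, and with a term for the component above 13. By role the sign was positive for 6 of 8 hydrolases (median 0.06), 2 of 3 lumenal proteins (0.11), 6 of 8 membrane proteins (0.04), both transcription factors (0.05), 3 of 5 V0 members (0.05), 4 of 5 V1 members (0.09) and both accessory genes (0.03). These medians moved with single libraries: that of the hydrolases was 0.16 without wild type 3 and -0.0028 without wild type 1, that of the membrane proteins 0.12 without knockout 3 and -0.01 without wild type 2. For each of the 33 the 95% interval of the log2 difference, taken gene by gene, lay within a 2-fold change either way, as it did for 87.1% of all tested genes and 96.4% of those with a mean of at least 10 TPM. For 26 it lay within 0.5 on the log2 scale, as it did for 7760 of the 13722 tested genes and 6694 of the 8681 with a mean of at least 10 TPM.

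**Figure D2:**
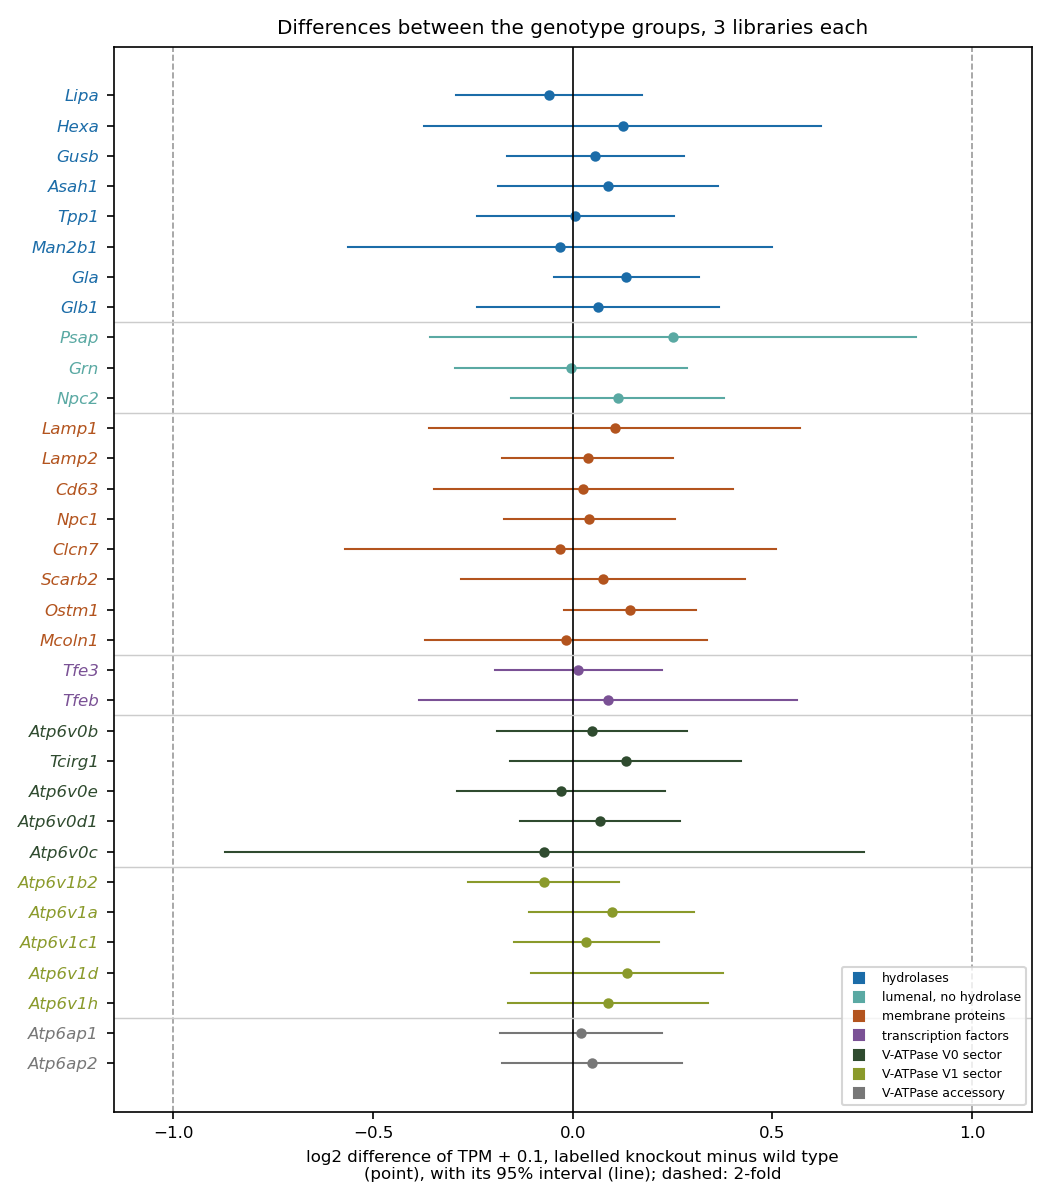
Log2 difference of each gene (point; labelled knockout minus wild type, on log2(TPM + 0.1)) with its 95% interval from limma (line), n = 3 libraries each; dashed lines mark 2-fold. All 33 intervals include 0 and stay inside 2-fold, and those of Atp6v0c and Psap are the widest.

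The groups did not overlap for 2 members, Gla and Ostm1, or 6.06% of the 33, against a background of 5.12% of all tested genes. In both the knockout label was higher, as for 2.84% of all tested genes. Gla encodes alpha-galactosidase A, the enzyme lacking in Fabry disease, and is on the minus strand of chromosome X of mm10, positions 134588169 to 134601005. It had 157, 159.5 and 161 TPM with the knockout label, against 143, 137 and 155 TPM in wild type. The knockout libraries lay close together, and the highest wild-type library came within 2 TPM of the lowest of them. The log2 difference of 0.13 ± 0.08 had a 95% interval from -0.05 to 0.31. Ostm1, the partner protein that the chloride-proton exchanger of the lysosome needs for its stability, is on the plus strand of chromosome 10, positions 42678916 to 42702462. It had 115, 116 and 116 TPM with the knockout label, against 99.8, 108 and 108 TPM in wild type. Its log2 difference of 0.14 ± 0.07 (interval -0.02 to 0.31) had the smallest p of the members (0.0805 unadjusted; limma adjusted p = 1.0). In GENCODE M21 5.69% of the exon bases of Ostm1 overlap a gene on the other strand, and the strand setting of the counting is not given in the sources used here.

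Among the 8 hydrolases Lipa was the most abundant and the steadiest. It encodes the acid lipase that frees cholesterol from its esters, and it had 2124, 2253 and 2036 TPM with the knockout label, against 2187, 2218 and 2271 TPM in the wild-type libraries, a log2 difference of -0.06 ± 0.10. The groups overlapped, and the highest library was 1.12 times the lowest. Hexa, the alpha subunit of beta-hexosaminidase, which degrades GM2 ganglioside, had 1560.5, 1441 and 1096 TPM with the knockout label, against 1108, 1063 and 1613 TPM in wild type. High values stood in knockout 1, knockout 2 and wild type 3, and the genotypes overlapped (log2 difference 0.13 ± 0.21, or 0.32 without wild type 3 and 0.015 without wild type 2). Man2b1, the lysosomal alpha-mannosidase, varied most among the hydrolases, 1.74-fold from the lowest to the highest library: 335, 328 and 217 TPM with the knockout label, against 255, 265 and 378 TPM in wild type. Its lowest library was a knockout library and its highest a wild-type one.

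The levels of the hydrolases ran in the order Lipa, Hexa, Gusb, Asah1, Tpp1, Man2b1, Gla and Glb1. Gusb, the beta-glucuronidase, had a mean of 770.1 ± 43.8 TPM over the 6 libraries (SD), and Asah1, the acid ceramidase, 658 ± 61.7 TPM. Their ranges overlapped, although Gusb lay above Asah1 in 6 of 6 libraries. Tpp1, a tripeptidyl peptidase lost in a childhood form of neuronal ceroid lipofuscinosis, had 322 ± 25.2 TPM and could not be separated in range from Man2b1. Neither could Gla from Glb1, the lysosomal beta-galactosidase, at 152 ± 9.77 and 148 ± 16.4 TPM.

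The 3 lumenal proteins without hydrolase activity held the most abundant member. Psap encodes prosaposin, the precursor of the saposins, which present sphingolipids to the hydrolases. Its locus is chromosome 10, 60277628 to 60302600, plus strand, and it had 12662, 11978 and 9232 TPM with the knockout label, against 8023, 7950 and 13039 TPM in wild type. Wild type 3 was the highest of all 6 libraries and the other wild-type libraries the lowest. The log2 difference of 0.25 ± 0.25 was the largest of the members, with an interval from -0.36 to 0.86, and it was 0.49 without wild type 3 and 0.13 without wild type 2. Npc2, a carrier that hands cholesterol to NPC1 in the membrane, had 771, 763 and 679.5 TPM against 639.6, 639 and 774 TPM, a log2 difference of 0.11 ± 0.11. Grn, the precursor of the granulins, had 2344, 2333 and 2066 TPM against 2315, 2013 and 2445 TPM, and its genotype means of 2248 and 2257 TPM were close to equal.

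Lamp1, the main glycoprotein of the lysosomal membrane, was the most abundant of the 8 membrane proteins. Its locus is chromosome 8, 13159135 to 13175338, plus strand, and it had 3330, 3262 and 2498 TPM with the knockout label, against 2389, 2603 and 3511 TPM in wild type. As for Hexa and Psap, knockout 1, knockout 2 and wild type 3 were high and the other libraries low, and the log2 difference was 0.10 ± 0.19. In GENCODE M21 9.31% of its exon bases overlap a gene on the other strand, and for Hexa 12.8% do. Lamp2, which also serves chaperone-mediated autophagy, had 451 ± 23.9 against 440 ± 31.6 TPM. Scarb2, the carrier of glucocerebrosidase to the lysosome, had 149, 149 and 117 TPM against 117, 123 and 155 TPM, the same order of libraries at a lower level.

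Npc1, which exports cholesterol from the lysosome, had 216 ± 7.01 TPM with the knockout label, against 210.4 ± 19.9 TPM in wild type. Mcoln1, a calcium channel of the lysosomal membrane, was the lowest membrane protein at 57.7 ± 7.93 against 58.5 ± 8.55 TPM. Both were highest in knockout 1, knockout 2 and wild type 3. Cd63, a tetraspanin of late endosomes and lysosomes, had 419, 426 and 337 TPM against 433, 315 and 418 TPM, with knockout 3 and wild type 2 as the low libraries; a pseudogene of Cd63 is annotated, so its reads may be shared.

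Clcn7 followed another order of libraries. It encodes the chloride-proton exchanger that pairs with OSTM1, and it had 134, 182 and 142 TPM with the knockout label, against 181, 110.4 and 184 TPM in wild type. Knockout 2, wild type 1 and wild type 3 were high, and the log2 difference was -0.03 ± 0.23. Its partner Ostm1 varied far less, 1.17-fold between the lowest and highest library against 1.67-fold for Clcn7. The 2 genes also had their lowest value in different wild-type libraries, Clcn7 in wild type 2 and Ostm1 in wild type 1.

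The 2 transcription factors of the list were the least abundant members beside Mcoln1 and did not separate the genotypes. Tfeb had 30.6, 22.9 and 19.3 TPM with the knockout label, against 21.1, 19.8 and 27.0 TPM in the wild-type libraries, a log2 difference of 0.09 ± 0.20 with an interval from -0.39 to 0.56. Tfe3 had 107, 104 and 95.8 TPM against 101, 94.3 and 109 TPM, a log2 difference of 0.01 ± 0.09. Tfe3 was above Tfeb in every library. Both were highest in knockout 1, knockout 2 and wild type 3. These are transcript levels, and the location of the proteins, on which their activity depends, was not measured.

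In the V0 sector of the pump the sign of the difference was positive for 3 of 5 members. Atp6v0b, one of the proteolipid subunits of the rotating ring, was the most abundant V-ATPase gene and had 761, 736 and 672 TPM with the knockout label, against 695, 644 and 760.2 TPM in wild type. Tcirg1, the a3 subunit that the osteoclast needs for bone resorption, had 480.4, 405 and 429 TPM against 411, 346 and 446 TPM. Wild type 1 and wild type 3 lay above its lowest knockout library, and the log2 difference of 0.13 ± 0.12 had an interval from -0.16 to 0.42; it was 0.03 without wild type 2 and 0.21 without wild type 3. Atp6v0d1, the subunit that joins the ring to the stalk, had 406 ± 24.3 against 387 ± 18.4 TPM, and the small subunit Atp6v0e 406 ± 44.3 against 413 ± 28.8 TPM.

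Atp6v0c, the main proteolipid of the ring, varied more than any other member. It had 311, 512 and 294 TPM with the knockout label, against 406, 246 and 546 TPM in wild type, 2.22-fold from the lowest to the highest library. Knockout 2, wild type 1 and wild type 3 were high, the same libraries as for Clcn7, and these 2 were the only members with that order, which 2.57% of all tested genes had. The log2 difference of -0.07 ± 0.33 had the widest interval of all members, from -0.87 to 0.73. It was -0.38 without wild type 2 and 0.19 without wild type 3. Pseudogenes of Atp6v0c are annotated, so its level is uncertain where the counting could share reads.

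The V1 sector had the steadiest sum, although Atp6v1h varied 1.29-fold and Atp6v1d 1.24-fold between libraries. Atp6v1b2 and Atp6v1a, the B and A subunits that form the ATP-hydrolysing head, had 638 ± 3.01 against 672 ± 33.8 TPM and 674 ± 16.5 against 631 ± 44.4 TPM. By library Atp6v1b2 had 638, 642 and 636 TPM with the knockout label, against 698, 684 and 634 TPM in the wild-type libraries, a log2 difference of -0.07 ± 0.08. Wild type 3 lay just below the knockout libraries, and the other wild-type libraries above them. Atp6v1d, a part of the central stalk, had 266, 279 and 251 TPM against 229.9, 225 and 273 TPM, a log2 difference of 0.14 ± 0.10. Its highest wild-type library lay above 2 of the 3 knockout libraries.

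Atp6v1c1, which links the head to the V0 sector, and Atp6v1h, the subunit that restrains free V1, were highest in knockout 3. Atp6v1c1 had 377, 378 and 411 TPM against 374, 392 and 372 TPM. Atp6v1h had 219.8, 220.1 and 260.3 TPM against 219, 238 and 201 TPM, a log2 difference of 0.09 ± 0.10, which was 0.0075 without knockout 3. Neither separated the genotypes. The accessory gene Atp6ap2, also known as the prorenin receptor, had 433, 463 and 516 TPM against 472, 461 and 429.9 TPM, and Atp6ap1, an assembly partner of the pump, 606, 627 and 563 TPM against 596, 559.5 and 614 TPM.

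On the TPM scale, which is per gene length, the 12 V-ATPase members ran from Atp6v0b (711 ± 48.6 TPM over 6 libraries, SD) to Atp6v1h (226 ± 20.3 TPM). Atp6v0b, Atp6v1b2 and Atp6v1a did not differ beyond their ranges, nor did Atp6ap2, Tcirg1, Atp6v0e, Atp6v0d1 and Atp6v0c each from the next in order, which for Atp6v0c is Atp6v1c1. Gaps between neighbours without overlapping ranges lay below Atp6ap1 and below Atp6v1c1. Within V1 the A and B subunits of the head had means of 652 and 655 TPM, and the C, D and H subunits 384, 254 and 226 TPM. Of the isoforms that compete for a place in V0, named after their values were seen, the a3 gene Tcirg1 (419 TPM) lay above Atp6v0a1 (222 TPM) and Atp6v0a2 (33.4 TPM), and the d1 gene Atp6v0d1 (396 TPM) above Atp6v0d2 (30.5 TPM), the isoform induced in osteoclasts. Osteoclast markers were low in all libraries, their sum over 7 measured genes being 87.3 to 107 TPM with the knockout label, against 88.2 to 116 TPM in wild type. Calcr was not analysed here.

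Most members had the same 3 highest libraries, which came from both genotype labels. For 20 of the 33 the 3 highest libraries were knockout 1, knockout 2 and wild type 3, the libraries on one side of the component computed without them, against a background of 22.7% of all tested genes. For 0 of 33 they were the 3 lowest, against 24.6% of all tested genes. This order held for 5 of 8 hydrolases, 3 of 3 lumenal proteins, 5 of 8 membrane proteins and both transcription factors. In the pump it held for 2 of 5 V0 members, 2 of 5 V1 members and 1 of 2 accessory genes. Among members with CACGTG in a matched promoter it held for 6 of 9, and among those without for 12 of 19. The component was read from these same libraries, so this is a description, with no test. Each side holds 2 libraries of one label and 1 of the other. A part of the genotype in this order therefore cannot be told apart from differences between single libraries.

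**Figure D3:**
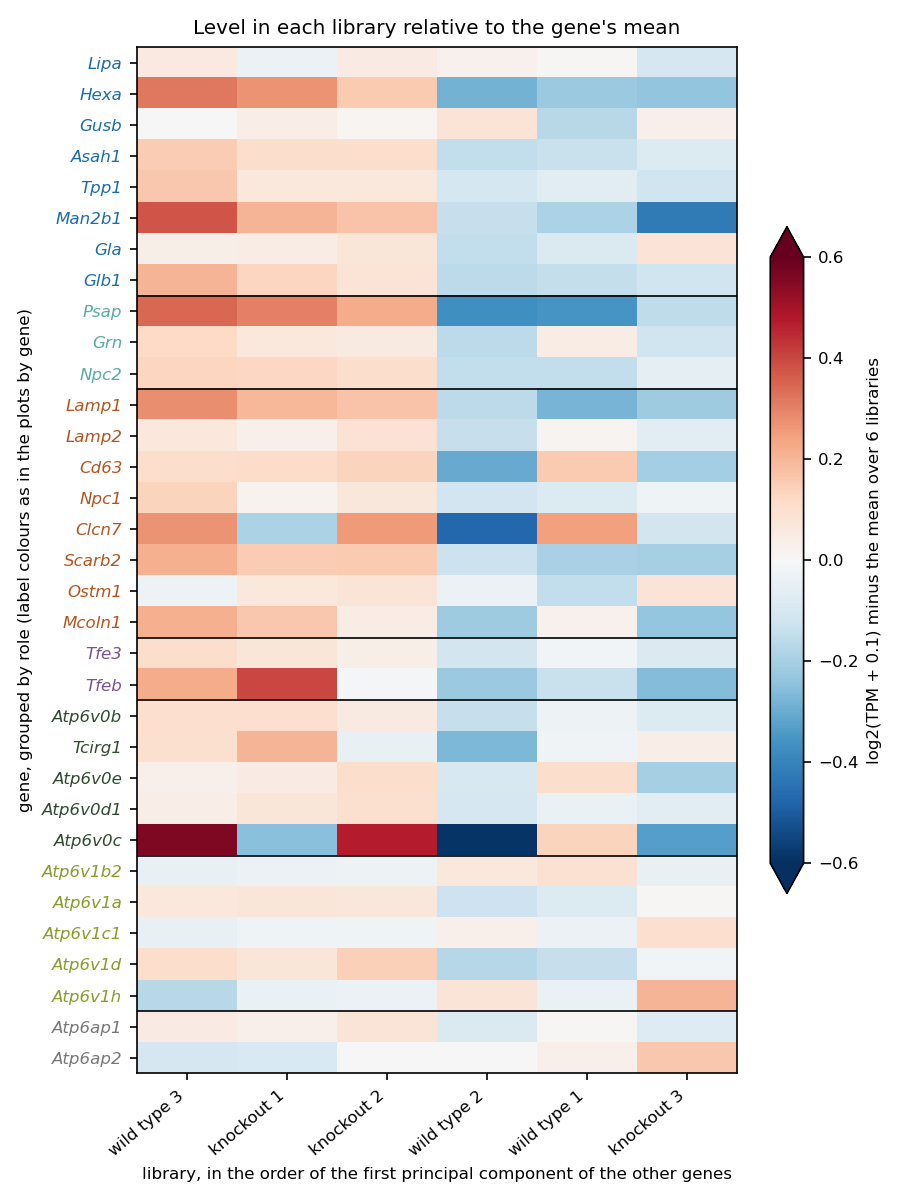
Log2(TPM + 0.1) of each gene in each library minus its mean over the 6 libraries (colour), with genes grouped by role and libraries ordered along the first principal component of the other genes. Wild type 3, knockout 1 and knockout 2 on the left are above the mean for most hydrolases, lumenal and membrane proteins. For 13 of the 33 genes, Atp6v0c and Clcn7 among them, these are not the 3 highest libraries.

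Summed over a role, the V1 sector hardly moved between libraries while the lumenal and membrane proteins did. The 5 V1 genes held 0.219, 0.220 and 0.221% of all TPM with the knockout label, against 0.214, 0.214 and 0.216% in wild type, the highest library being 1.04 times the lowest. Every library labelled knockout thus lay above every wild-type library in this sum of 5 listed genes, by a small margin. Each of the 5 genes overlapped between the genotypes, and Atp6v1b2 had a negative difference. In the sums of the other roles the genotypes overlapped. Of single tested genes 5.12% did not overlap. Further tested V1 subunits, Atp6v1e1, Atp6v1f, Atp6v1g1 and Atp6v1g2, are not in the sum, so it does not describe the whole sector. The separation was not tested. The V0 genes held 0.239, 0.252 and 0.213% against 0.234, 0.199 and 0.258%, a ratio of 1.29. For the hydrolases the shares were 0.617, 0.615 and 0.535% against 0.542, 0.552 and 0.644%, and the ratio 1.20. For the membrane proteins the ratio was 1.32, and for the lumenal proteins, of which Psap is the largest part, 1.53. The accessory genes had a ratio of 1.07. In these sets, the accessory genes and V1 apart, the 3 highest libraries were knockout 1, knockout 2 and wild type 3.

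**Figure D4:**
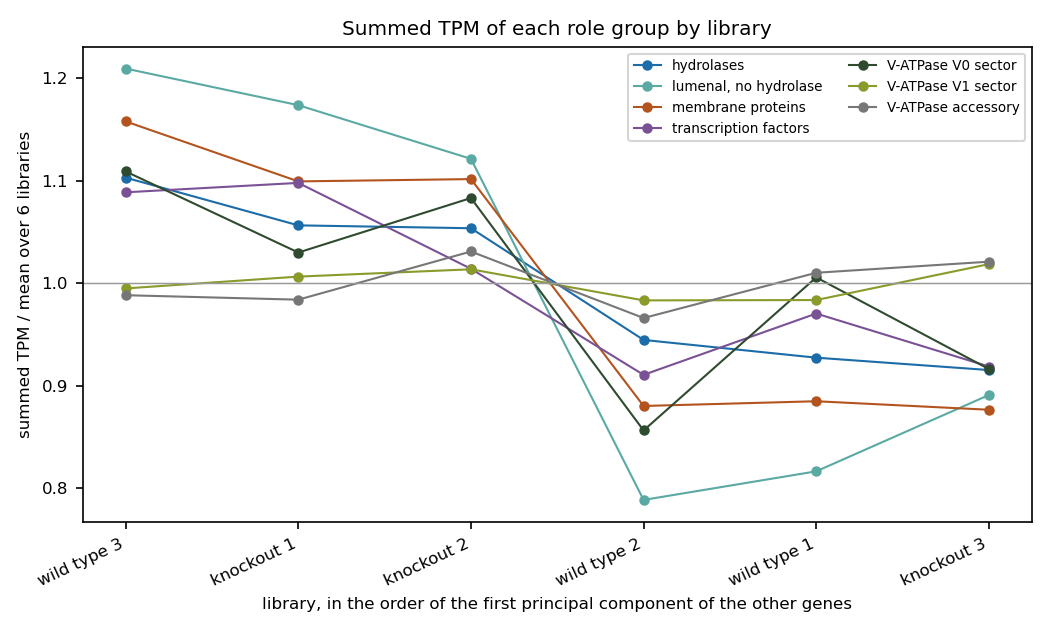
Summed TPM of each role group in each library divided by its mean over the 6 libraries, with libraries ordered along the first principal component of the other genes. The V1 sector stays between 0.983 and 1.02 of its mean, whereas the lumenal proteins run from 0.789 in wild type 2 to 1.21 in wild type 3.

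The sums of the neutrophil markers and of the macrophage markers other than Lyz2 moved with this order, but the single markers did so only in part. The summed level of 7 measured neutrophil markers was 7673 to 8320 TPM in knockout 1, knockout 2 and wild type 3 and 5733 to 7079 TPM in the other libraries, and 3 of the 7 had the same 3 highest libraries. By genotype it was 6910 to 7987 TPM with the knockout label, against 5733 to 8320 TPM in wild type. Mpo and Elane were highest in wild type 1 and next highest in knockout 3, and Ngp was highest in wild type 1. The 6 measured macrophage markers other than Lyz2 summed to 4625 to 4798 TPM in knockout 1, knockout 2 and wild type 3 and 3759 to 4566 TPM in the others. Of the 7 macrophage markers 2, Csf1r and Mertk, a receptor for apoptotic cells, had that order, while Itgam and Fcgr1 were highest in knockout 3 and Cd68 in wild type 1. None of these markers was at 0 in every library, and Ly6g was not analysed here. With Lyz2, whose promoter drives the Cre, the macrophage markers summed to 16991 to 23979 TPM with the knockout label, against 31273 to 45157 TPM in wild type. T and NK cell markers, summed over 8 genes, reached 7.43 to 10.7 TPM with the knockout label, against 4.86 to 5.85 TPM in wild type. Summed over 6 genes each, the B cell markers lay at 56.2 to 96.2 against 90.3 to 115 TPM, the erythroid at 28.7 to 55.1 against 45.3 to 86.4 TPM and the stromal at 1.82 to 2.33 against 2.41 to 4.58 TPM. No tested T and NK cell, B cell, erythroid or stromal marker was highest in knockout 1, knockout 2 and wild type 3. The osteoclast sum overlapped between the sides, at 98.1 to 116 TPM in those libraries and 87.3 to 104.5 TPM in the others. The part of these cell types in the members' levels was not tested.

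With a term in the model for the side of the component that a library took, the median log2 difference of the 33 members was -0.02, against 0.05 without it. With the term 12 members changed sign, among them Hexa (-0.05), Lamp1 (-0.04) and Tfeb (-0.05). Within knockout 1, knockout 2 and wild type 3 the log2 difference of Psap was -0.08, and within the other libraries 0.21. Each side holds 1 library of one of the labels, so these values have no spread of their own. No member was called with the term (limma), where 1042 genes had an unadjusted p under 0.05.

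None of the other genes of the pathway was called. Of the further lysosomal and V-ATPase genes listed, 98 were in the table and 96 were tested. Of these 0 were called higher and 0 called lower, and in the authors' deposited table none is called. Their median log2 difference was 0.05, with 68 positive and 28 negative, where 51.1% of all tested genes were positive. Within knockout 1, knockout 2 and wild type 3 their median was -0.02, and within the other libraries -0.03. Of the 96 the groups did not overlap for 3 with knockout higher and for 1 with knockout lower. Over all tested genes they did not overlap for 5.12% in either direction, and for 2.84% with knockout higher. Of 30 other hydrolases and activators 24 were positive, with medians within the same 2 sides of -0.04 and -0.09. The one with the smallest p was Scpep1, a serine carboxypeptidase, with 551 ± 34.0 against 476 ± 74.7 TPM. Galns, the sulfatase of keratan and chondroitin sulfate, had 84.1, 82.5 and 79.9 TPM with the knockout label, against 88.5, 88.6 and 88.2 TPM in wild type. Its groups did not overlap, with knockout lower, and the log2 difference was -0.11 ± 0.07. The largest difference of these enzymes, 0.23 ± 0.22, was that of Naaa, an acid amidase.

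Of 27 other membrane proteins 22 were positive, although the median was -0.03 within each side of the component. Tmem192 had 88.5 ± 1.48 against 82.8 ± 1.65 TPM without overlap, a log2 difference of 0.10 ± 0.07, and Tpcn2, an endolysosomal cation channel, 55.0 ± 1.20 against 61.4 ± 7.29 TPM. Abcb9, a peptide transporter, differed by 0.17 ± 0.22. Among 8 other V-ATPase subunits Atp6v1g1, a stator subunit, had 366, 359 and 370.5 TPM against 305, 335 and 358 TPM. Its groups did not overlap, by a margin under 1 TPM, and the log2 difference was 0.14 ± 0.09. Atp6v0e2 had the largest difference, 0.47 ± 0.28, at a mean of only 0.20 TPM. Of 7 assembly factors Wdr7 differed by 0.13 ± 0.10 and Tmem199 by 0.06 ± 0.11.

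The genes that bring enzymes to the lysosome had mostly negative differences, but their median was positive within each side of the component. Of 7 sorting and maturation genes 1, Sumf1, the activator of sulfatases, was positive (124 ± 4.92 against 113 ± 9.34 TPM). The other 6 were negative, where 51.1% of all tested genes were positive. The median log2 difference was -0.05. Within knockout 1, knockout 2 and wild type 3 it was 0.04, and within the other libraries 0.01. Sort1, a sorting receptor, differed by -0.16 ± 0.24 and Nagpa, which uncovers the mannose 6-phosphate tag, by -0.09 ± 0.09. Sort1 had 49.5 TPM in knockout 3 and 73.7 to 95.7 TPM in the other libraries. In this set 1 of 7 genes, Sort1, had knockout 1, knockout 2 and wild type 3 as the highest libraries, against 22.7% of all tested genes. They were the lowest for 2 of 7, against 24.6% of all tested genes. Of 17 transcription factors and nutrient sensors 12 were positive; Rragc and Rragd, GTPases that recruit mTORC1 and TFEB to the lysosome, differed by 0.14 ± 0.11 and 0.32 ± 0.31, and Lamtor5 by 0.12 ± 0.10. Rragd had 7.20, 7.08 and 5.02 TPM with the knockout label, against 3.77, 4.24 and 8.19 TPM in wild type, the same order of libraries as Hexa and Lamp1. Across the 96 genes that order held for 52, or 54.2%, and for 19 of the 30 hydrolases and activators, against 22.7% of all tested genes.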

How the data were processed

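The members and lists were chosen with earlier results of these data known. Per the submitters' processing notes the tools were TopHat2 2.0.12, featureCounts from Subread, edgeR, Picard 1.127 and FastQC 0.11.2, with mm10. How each was set, and which gene models were counted, is not given in the sources used here. Per the labels, strand-specific total RNA libraries were made. The authors deposited 1 TPM value per gene and library (unit read from the values, which sum to 1000000 per library). The table also holds, per the file headers, 5 columns of the authors' comparison: its log2 fold change, a log2 CPM averaged over libraries, a p-value, the same adjusted, and the score of a likelihood ratio test. Gene starts, counted from 0 in the table, are printed counting from 1.

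Whole reads were recovered from the TPM values as fractions shared by the libraries: 100% of 94034 values above 0 were whole within 0.01 of a read, and for 427 genes the log2 CPM column gave the common factor. The genotypes were compared on log2(TPM + 0.1) with limma 3.58.1 under R 4.3.3, two-sided, with a trended prior and Benjamini-Hochberg adjustment; a gene needed 0.1 TPM in 3 or more libraries; p-values measure the spread between these samples. The recovery and the fit were tested on simulated data. An exact permutation test of 3 against 3 libraries was not used. Every member is accounted for by role; values per library are given for the most abundant member of each role and the one of smallest p, for members whose groups do not overlap, and for others chosen after their values were seen. Of the other pathway genes those with the 2 smallest p and the largest difference per list, and any called, are named, and the V0 isoforms and the single macrophage markers were added after their values were seen.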

Additional observations from a re-analysis of the deposited data

How the results depend on the processing

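Under each of 16 alternatives, listed below, 0 genes and 0 members were called (limma); the number of genes with an unadjusted p under 0.05 was 299, and over the alternatives it ran from 168 with the filter of 1 TPM to 1042 with the component term, and the lowest adjusted p of a member was 0.57. The alternatives were pseudocounts of 0.01 and 1, no filter and a filter of 1 TPM, median-ratio scaling, limma-voom on recovered reads, no mean-variance trend, a robust prior, the replicate block, a term for the side each library took on the component, and each library left out. Median-ratio scaling shifted the libraries by -0.02 to 0.02 on the log2 scale, and apart from the side term and left-out libraries no member changed sign. Same-numbered libraries had correlations of their deviations from the group means of -0.24, -0.15 and -0.53. The component set the libraries of each such pair on opposite sides, so these values cannot show whether samples were prepared in pairs. With the replicate block 232 genes had an unadjusted p under 0.05 (limma), with 0 calls and a median log2 difference of the members of 0.05. With the side term these log2 differences turned negative: Hexa -0.045, Glb1 -0.035, Tpp1 -0.065, Lamp1 -0.044, Lamp2 -0.0043, Scarb2 -0.046, Cd63 -0.058, Npc1 -0.0079, Tfeb -0.054, Tfe3 -0.038, Atp6v0b -0.0087 and Atp6ap1 -0.016. With single libraries left out 20 members changed sign, over these ranges: Glb1 -0.00043 to 0.18, Gusb -0.012 to 0.11, Man2b1 -0.14 to 0.17, Tpp1 -0.045 to 0.087, Grn -0.084 to 0.056, Lamp1 -0.0087 to 0.27, Lamp2 -0.022 to 0.079, Scarb2 -0.0045 to 0.20, Cd63 -0.12 to 0.14, Mcoln1 -0.13 to 0.10, Npc1 -0.0046 to 0.12, Clcn7 -0.27 to 0.10, Tfeb -0.092 to 0.24, Tfe3 -0.037 to 0.0701, Atp6v0b -0.0097 to 0.11, Atp6v0c -0.38 to 0.19, Atp6v0e -0.0900 to 0.062, Atp6v1c1 -0.0072 to 0.057, Atp6ap1 -0.017 to 0.064 and Atp6ap2 -0.019 to 0.11. Of the members that kept their sign, Hexa ran from 0.015 to 0.32, Asah1 from 0.036 to 0.19, Psap from 0.13 to 0.49, Npc2 from 0.066 to 0.20, Tcirg1 from 0.03 to 0.21, Atp6v0d1 from 0.035 to 0.12, Atp6v1a from 0.058 to 0.15, Atp6v1d from 0.083 to 0.22, Atp6v1h from 0.0075 to 0.15, Lipa from -0.098 to -0.024 and Atp6v1b2 from -0.11 to -0.045. The medians by role ran from -0.0028 to 0.16 for hydrolases, 0.066 to 0.20 for lumenal proteins, -0.013 to 0.12 for membrane proteins, -0.055 to 0.15 for transcription factors, -0.0097 to 0.11 for V0 and 0.022 to 0.059 for accessory genes. The median of the V1 sector, 0.09, was 0.0075 without knockout 3 and 0.03 without wild type 3; over all members the median ran from -0.00043 to 0.11. The cause was not tested. Each member had at least 1263 reads in each library, and the precision rests on 3 libraries a group.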
